A study of Zea mays with 6 samples.

Results

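The dehydrins, late embryogenesis abundant (LEA) proteins and enzymes of osmoprotectant synthesis were followed in maize ovaries with incompletely fused carpels (*ifc*) and in wild-type (WT) ovaries. The members were the rows of the deposited expression table without a transcription factor family whose description named a dehydrin, an LEA protein, galactinol, raffinose, pyrroline-5-carboxylate or betaine, or whose *Arabidopsis* match carried a symbol of the LEA, EM, RAB18, RD20 to RD29, COR, ERD10, ERD14, XERO, LTI, GOLS or P5CS series. This gave 36 members of the 25368 rows in the table, each with its own gene identifier. The description found 13 of them and the symbol 29, with 6 found by both. With the case of letters in the symbols ignored, as here, the rule takes in 1 galactinol synthase match more than the 35 members found otherwise. By type there were 4 dehydrins, 7 other LEA proteins, 4 enzymes of galactinol and raffinose, 5 enzymes of proline and 16 other matches of RD, COR and LTI genes. The words for betaine found 0 rows.

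The 6 RNA-seq libraries were 3 of WT and 3 of *ifc* ovaries, taken before pollination from plants of the inbred line Yu-A474 grown in the field without stress. A normal ovary and an adjacent *ifc* ovary were picked from the middle of the same ear, with the 3 sets from different ear rows. The GEO labels call the *ifc* samples a mutant genotype, but by the methods of the study both kinds of ovary grew on the same plants, so WT and *ifc* name phenotypes of ovaries and no allele set the groups apart by design. The *ifc* ovary has an open stylar canal, where the edges of the carpels have not joined, and whole ovaries were used with the glumes, lemma and palea removed.

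Dehydrins and other LEA proteins are hydrophilic, mostly unfolded proteins that build up in seeds as they dry and in other tissues under drought, cold or abscisic acid, where they are thought to protect membranes and enzymes as water is lost. Osmoprotectants are small solutes with a like role. Galactinol synthase joins galactose to inositol to give galactinol, and raffinose synthase passes this galactose on to sucrose to give raffinose. Proline is made from glutamate by pyrroline-5-carboxylate synthetase and reductase, and glycine betaine is made from choline.

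Expression was given in FPKM, the number of sequenced fragments scaled by transcript length and by library size, with 1 value for each phenotype, which the authors computed from the reads of its 3 libraries pooled. The values therefore have no replicate error, no test between the phenotypes was run, and every ratio below is a difference between 2 pooled values. No read counts per gene are in the table, and the library totals given by the study were not used here, so no counting interval was computed. FPKM is a measure per length, so levels can be compared between genes. In whole ovaries, fewer cells of a type and less RNA per cell cannot be told apart. A row was said to be past 1.5-fold when its FPKM differed by more than 1.5-fold and was above 2 in *ifc* or WT, which are the fold and expression limits of the study, taken without its p-value. Of the 21093 rows above 2 FPKM, 871 (4.13%) were past 1.5-fold higher in *ifc* and 538 (2.55%) past 1.5-fold lower. With both columns set to the same total FPKM, these numbers became 22664 and 55 of 23400 rows, because 55.6% of all FPKM in WT lay in a single row that is listed at 0 in *ifc*, and every log2 ratio moved by 1.13. Without that row the same scaling moved them by -0.05 and gave 741 and 677 rows. Directions are given by the authors' own scaling, and with equal totals every ratio under 1 among the members above 2 FPKM (10 of 10) became a ratio over 1.

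Of the 36 members, 4 were past 1.5-fold higher in *ifc* ovaries and 0 were past 1.5-fold lower. These 4 are 13.8% of the 29 members above 2 FPKM, against 4.13% of all such rows. They were 2 galactinol synthase genes, the raffinose synthase gene and a match of *Arabidopsis* RD29B. Of these 4, 2 were above 2 FPKM in *ifc* only and so could not have been counted without a difference, which limits what the share shows. With the minimum placed on the mean of *ifc* and WT instead, an alternative chosen after seeing the data, 3 members were counted, against 3.69% of rows. The other 7 members were at or below 2 FPKM in both phenotypes. None of the 36 was listed at 0. Among the 29 members, 19 had a ratio over 1 (65.5%, against 45.9% of all rows above 2 FPKM), and the median log2 ratio was 0.16 against -0.02 for all such rows. Of these 19, 3 were above 2 FPKM in *ifc* only, and 0 members were so in WT only. Those 3 could only have a ratio over 1, which limits what the share and the median show. Without an FPKM minimum, 21 members had a ratio over 1 (48.7% of all rows did) and 15 a ratio under 1, and the median was 0.13 against -0.01 for all rows. In that case 5 members were past 1.5-fold higher and 1 lower, where the shares of all rows were 7.4% and 3.43%. Past 2-fold higher there were 3 members, against 1.43% of the rows above 2 FPKM. These 3 include the 2 that were above 2 FPKM in *ifc* only, which limits this comparison as well.

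**Figure D1:**
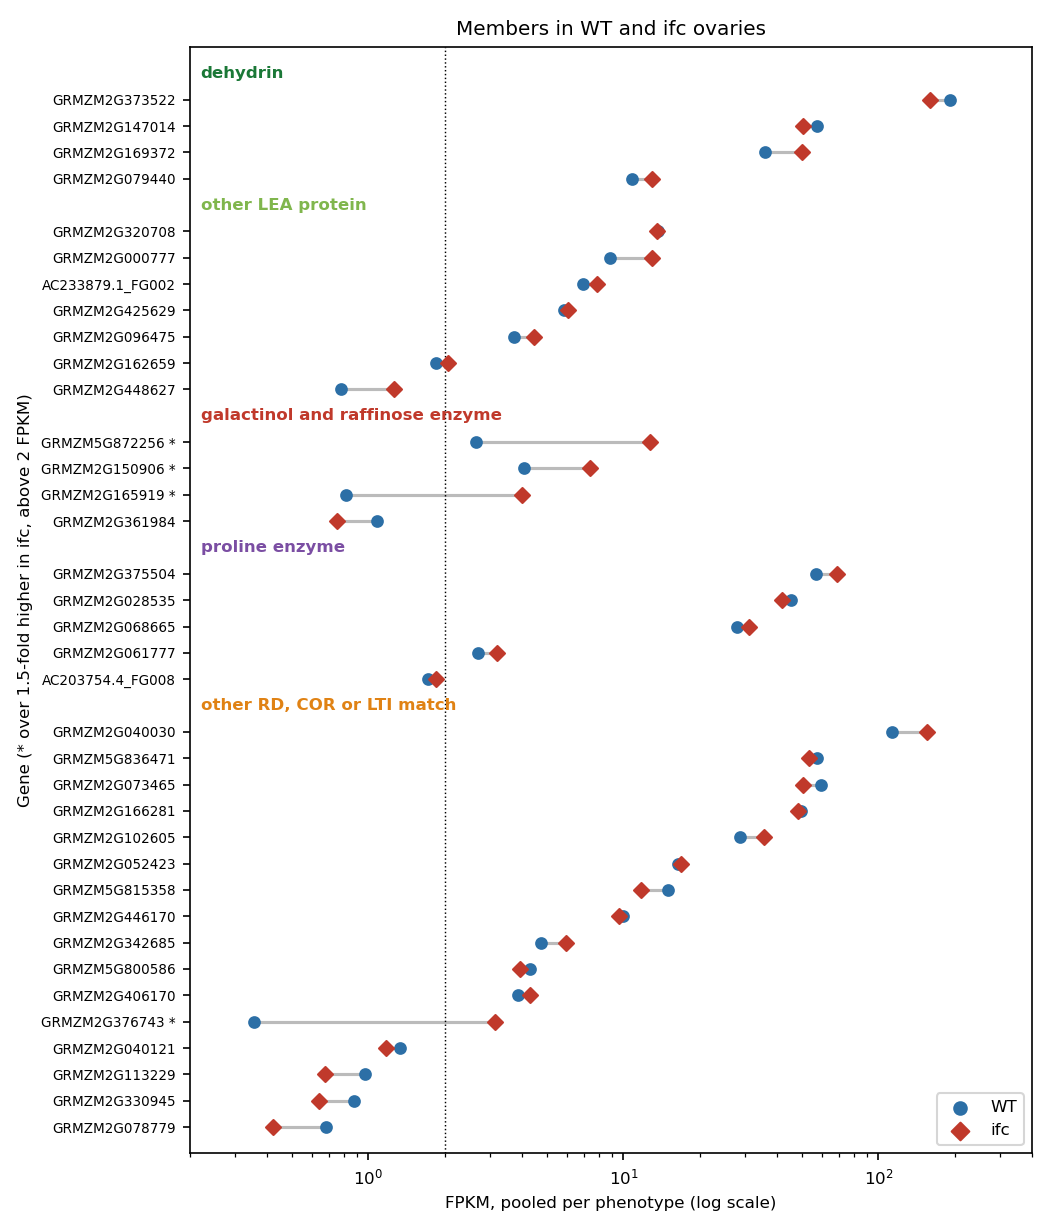
Pooled FPKM of the 36 members in WT (blue circles) and *ifc* ovaries (red diamonds) on a log axis, grouped by type and ordered by level, with a grey line joining the values of a gene and a dotted line at 2 FPKM. The long grey lines belong to GRMZM5G872256, GRMZM2G165919 and GRMZM2G376743, while the 2 values of each dehydrin and proline enzyme lie close together.

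Of the 4 members past 1.5-fold, 3 belong to galactinol and raffinose synthesis, and all 3 were higher in *ifc* ovaries. The galactinol synthase GRMZM5G872256 (chr9:134152465-134154240 on B73 RefGen_v3, plus strand), which RefSeq lists as gols3 and gols2, had 12.7 FPKM in *ifc* and 2.64 in WT ovaries. This is 4.79-fold higher in *ifc*, and 50 of the 21093 rows above 2 FPKM had a larger ratio. The second galactinol synthase, GRMZM2G165919 (chr1:51531587-51533796, plus strand), stood at 3.99 FPKM in *ifc* against 0.816 in WT, 4.89-fold higher. Both share the match *Arabidopsis* GolS1 and the description galactinol synthase 3, and their ratios were nearly equal although the first was the higher of the pair in each phenotype. This near equality was lost with 1 added to each FPKM. The log2 ratios were then 1.91 for GRMZM5G872256 and 1.46 for GRMZM2G165919, in place of 2.26 and 2.29. The third match of GolS1, GRMZM2G361984 on chromosome 7, carries no description in the table and was not higher in *ifc*, with 0.756 FPKM in *ifc* and 1.08 in WT. Summed over the 3 genes, galactinol synthase came to 17.4 FPKM in *ifc* and 4.54 in WT, a ratio of 3.83, and GRMZM5G872256 made up 72.7% of the sum in *ifc*. The raffinose synthase GRMZM2G150906 (chr3:12571384-12575346, plus strand), the only member of this function, had 7.42 FPKM in *ifc* and 4.07 in WT. It was 1.82-fold higher in *ifc*, the smallest of the 4 ratios past 1.5-fold.

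The genes that supply inositol and galactose to this route had ratios from 0.731 to 1.34. The 4 matches of inositol phosphate synthase, which makes the inositol skeleton, had ratios from 0.731 to 0.825. The largest of them, GRMZM2G004528, had 199.5 FPKM in *ifc* and 241.7 in WT. Their sum was 375.6 FPKM in *ifc* and 466.3 in WT, far above that of galactinol synthase. The inositol monophosphatase match GRMZM2G034417 had 18.5 and 18.1 FPKM. The 4 matches of UDP-glucose epimerase, which makes the UDP-galactose used by galactinol synthase, had ratios from 0.982 to 1.34, and GRMZM2G136439 stood at 295.1 FPKM in *ifc* and 288.4 in WT. This row and GRMZM2G469523 lie close together on the plus strand of chromosome 1 (220147959-220150971 and 220151376-220153252). Whether they are parts of a single gene was not tested. None of these 9 rows was past 1.5-fold. Among all rows above 2 FPKM, 4.13% were past 1.5-fold higher and 2.55% lower, so a count of none in so few rows shows little.

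The matches of alpha-galactosidase, SIP2 and DIN10 were listed together as genes of breakdown, and 1 of these 11 was past 1.5-fold. Of all rows above 2 FPKM, 4.13% were past 1.5-fold higher. The alpha-galactosidase match GRMZM2G146463 stood at 12.3 FPKM in *ifc* against 7.92 in WT, 1.55-fold higher. Such enzymes release galactose from raffinose sugars and from other galactose-bearing molecules. The other 5 alpha-galactosidase matches had ratios from 0.990 to 1.36. Of the 5 matches of SIP2 and DIN10, which are related in sequence to raffinose synthase, 4 were above 2 FPKM with ratios from 1.01 to 1.19. GRMZM2G340656, described as a stachyose synthase although listed with breakdown, was the highest gene of the route with 362.5 FPKM in *ifc* and 353.8 in WT.

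**Figure D2:**
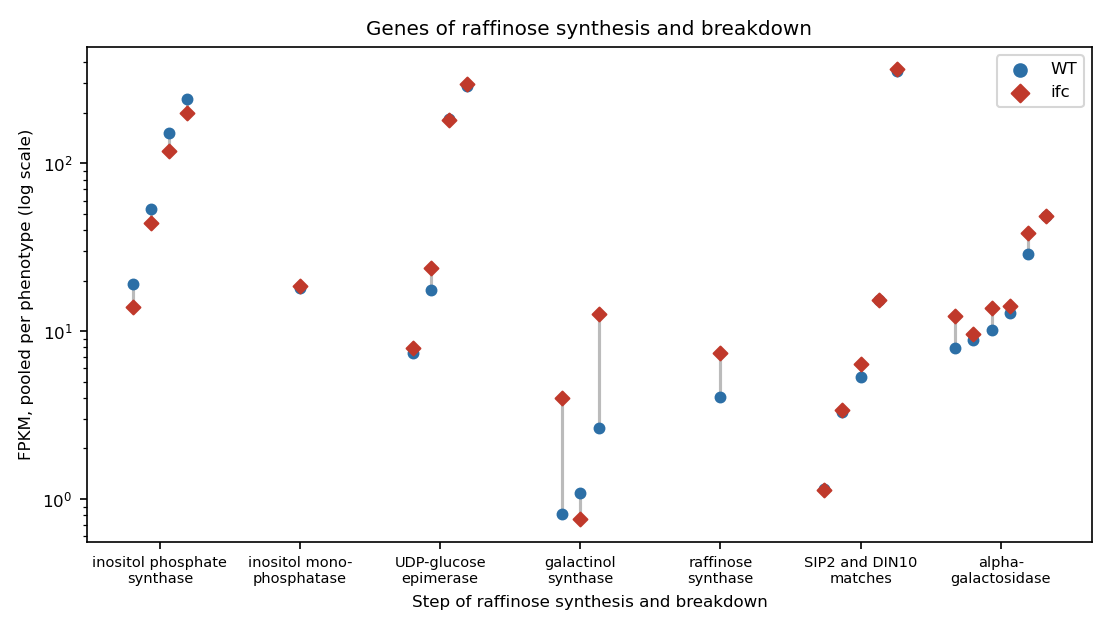
Pooled FPKM on a log axis for each gene of raffinose synthesis and breakdown, ordered by step, in WT (blue circles) and *ifc* ovaries (red diamonds, which hide the circle where the values nearly coincide). Long grey lines appear at galactinol synthase, where 2 of 3 genes were over 4-fold higher in *ifc*, while inositol phosphate synthase has all 4 diamonds below the circles.

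The widest ratio of any member was that of GRMZM2G376743 (chr5:23783296-23785415, minus strand), the match of *Arabidopsis* RD29B, also named LTI65. RD29B is known in *Arabidopsis* as a gene induced by drought and abscisic acid. The maize gene has no description in the table. Its level was 3.14 FPKM in *ifc* against 0.356 in WT ovaries, 8.82-fold higher, and 18 of the rows above 2 FPKM had a larger ratio. In WT only 1.86% of all rows had a lower FPKM, and in *ifc* its level was below the median of all rows, 9.40 FPKM. Its mean of 1.75 FPKM is below the minimum when this is placed on the mean. With 1 added to each FPKM, its log2 ratio was 1.61 in place of 3.14.

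None of the 4 dehydrins was past 1.5-fold, and they were split evenly between ratios over and under 1. GRMZM2G373522 (chr4:154337341-154339063, minus strand), listed in RefSeq as dhn2 and matched to ERD10, was the highest of all members with 158.8 FPKM in *ifc* and 190.7 in WT. Its ratio was 0.833, and 64.7% of the dehydrin FPKM of WT came from this gene. GRMZM2G147014 (chr5:193902114-193903647, minus strand), the match of the cold-induced dehydrin COR47, had 50.5 FPKM in *ifc* and 57.3 in WT, a ratio of 0.882. Both of these were thus somewhat higher in WT, and the other pair was higher in *ifc*. Dehydrin 13, GRMZM2G169372 (chr1:259363953-259365311, minus strand), had 50.2 FPKM in *ifc* and 36.0 in WT, a ratio of 1.40. GRMZM2G079440 (chr6:137332061-137333893, minus strand), which is DHN1 or RAB17 and is known in maize as an abscisic acid-responsive protein of embryos and stressed tissue, had 12.9 FPKM in *ifc* and 10.8 in WT, a ratio of 1.20. The summed level was 272.5 FPKM in *ifc* and 294.7 in WT, so the strongly expressed members outweighed the others. The median log2 ratio of the type was 0.04, and it was -0.01 with equal totals without the highest row and 1.16 with that row.

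Of the 7 other LEA proteins, 6 had a ratio over 1, where 48.7% of all rows did without a minimum. None was past 1.5-fold with an FPKM above 2. The nearest was GRMZM2G000777 (chr8:89037639-89038603, plus strand), with 12.9 FPKM in *ifc* and 8.83 in WT, a ratio of 1.46. Among all members this was the value just outside 1.5-fold, while the raffinose synthase at 1.82 was the one just inside. GRMZM2G320708 (chr1:204903789-204910966, minus strand), whose product belongs to the hydroxyproline-rich LEA glycoproteins, was the most strongly expressed of the type with 13.5 and 13.7 FPKM. The genes named for late seed development stood lower. The match of EM6, AC233879.1_FG002 (chr6:140536590-140537458, minus strand), had 7.88 FPKM in *ifc* and 6.97 in WT. The match of EM1, GRMZM2G162659, listed in RefSeq as EMB5, had 2.05 and 1.84 FPKM. These lie on the same strand of chromosome 6 with 33890 bases between them, and their ratios of 1.13 and 1.11 were nearly equal. The group 3 LEA genes GRMZM2G425629 and GRMZM2G096475 had 6.05 and 4.48 FPKM in *ifc* against 5.84 and 3.72 in WT. The lowest was the LEA4-5 match GRMZM2G448627, described as a seed maturation protein, at 1.26 and 0.781 FPKM. Its ratio of 1.61 would be past 1.5-fold without the minimum on FPKM.

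Proline synthesis differed little between *ifc* and WT ovaries. Of 4 rows matched to pyrroline-5-carboxylate synthetase, which makes the first and usually limiting step, GRMZM2G375504 (chr8:95226657-95237335, plus strand) had 68.5 FPKM in *ifc* and 56.7 in WT, a ratio of 1.21. GRMZM2G028535 (chr8:167716846-167725004, minus strand) had 41.9 and 45.5 FPKM, a ratio of 0.921. The remaining matches, GRMZM2G061777 and AC203754.4_FG008, had 3.18 and 1.84 FPKM in *ifc* and 2.69 and 1.71 in WT. They lie on the same strand of chromosome 6 with 350 bases between them and span 7330 bases together, and the RefSeq gene that lists GRMZM2G061777 is 8135 bases long on another assembly. Whether they are parts of a single gene was not tested. The sum of the 4 rows was 115.4 FPKM in *ifc* and 106.5 in WT. The reductase of the second step, GRMZM2G068665 (chr3:150304512-150308434, plus strand), had 31.0 FPKM in *ifc* and 27.8 in WT, a ratio of 1.12.

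Among proline genes outside the members, the pair of proline dehydrogenases differed in opposite directions. These enzymes begin the breakdown of proline in mitochondria. GRMZM2G117956 stood at 6.29 FPKM in *ifc* ovaries against 10.3 in WT, which is 1.64-fold lower, and GRMZM2G053720 had 7.87 and 5.28 FPKM, a ratio of 1.49. The ornithine aminotransferase GRMZM2G080828 had 59.5 and 58.8 FPKM. The proline transporter match GRMZM5G894233 had 22.05 and 18.8 FPKM, and the other such match, GRMZM2G078024, was at or below 2 FPKM. For betaine, whose own enzymes had no row by the rule, phosphoethanolamine methyltransferase on the route to choline was measured. GRMZM2G170400 had 76.9 FPKM in *ifc* against 89.0 in WT, and GRMZM2G060886 had 67.0 and 56.7. None of the 3 such genes was past 1.5-fold. Over all 60 genes of the lists outside the members, 54 were above 2 FPKM, with a median log2 ratio of 0.04. Of these 54, 2 were past 1.5-fold higher and 1 lower, where the shares of all rows above 2 FPKM were 4.13% and 2.55%.

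The other 16 members carried the symbols of other *Arabidopsis* genes, most of them named for their response to drying or cold, and apart from the RD29B match none was past 1.5-fold with an FPKM above 2. Their products differ widely, and most are not LEA proteins. Most of the 16 lay near equal values, with a median log2 ratio of 0.00 over the 12 above 2 FPKM. The 3 COR413 matches, membrane proteins named for cold acclimation, all had ratios over 1. GRMZM2G040030 (chr1:281042228-281045163, plus strand) had 154.7 FPKM in *ifc* and 112.5 in WT, a ratio of 1.37. GRMZM2G102605 had 35.6 and 28.5 FPKM, and GRMZM2G052423 had 16.8 and 16.4. The sum of the 3 was 207.0 FPKM in *ifc* and 157.5 in WT. The pair of cysteine proteases matched to RD21 stood near equal values, with 50.8 and 59.8 FPKM for GRMZM2G073465 and 48.6 and 49.7 for GRMZM2G166281.

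The 5 matches of RD22, a protein with a BURP domain, ranged from 0.421 to 9.61 FPKM in *ifc* and from 0.683 to 9.92 in WT, and 4 of them had a ratio under 1. The lowest, GRMZM2G078779 (BURP9 in RefSeq), was 1.62-fold lower in *ifc* but below 2 FPKM in both phenotypes. The pair of matches of RD20, a caleosin of lipid bodies, are neighbours on chromosome 1 with 56788 bases between them. GRMZM2G342685 had 5.96 FPKM in *ifc* against 4.76 in WT, and GRMZM2G040121 had 1.17 and 1.33. The COR27 match GRMZM5G815358 (chr1:17667663-17669732, plus strand) had 11.7 FPKM in *ifc* against 15.0 in WT, and its ratio of 0.780 was the lowest of any member above 2 FPKM. RefSeq lists this identifier under 2 genes, so the value may belong to more than 1. GRMZM5G836471 entered through the symbol RAB18, which *Arabidopsis* uses both for a dehydrin and for a Ras-related GTPase. Its description is that of the GTPase, so it was not counted as a dehydrin, and it had 53.3 FPKM in *ifc* and 57.4 in WT. RefSeq lists it under 3 genes.

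Of the 4 members past 1.5-fold, 3 were below 10 FPKM in both phenotypes. Of the 7 members whose higher FPKM was above 2 and up to 5, 2 were past 1.5-fold higher, and in that range 7.98% of all rows were. These 2 were above 2 FPKM in *ifc* only and are in the range only through that value, which limits what the comparison shows. From above 5 to 10 FPKM it was 1 of 5 members, against 4.06% of rows. From above 10 to 50 FPKM it was 1 of 10, against 2.81%, and above 50 FPKM it was 0 of 7, against 3.41%. The member counted from above 5 to 10 was the raffinose synthase, with 4.07 FPKM in WT. The one from above 10 to 50 was GRMZM5G872256, with 2.64 FPKM in WT. Each was in its range only through its value in *ifc*, so the same limit holds for these ranges. With a minimum of 10 FPKM in *ifc* or WT, only GRMZM5G872256 remained past 1.5-fold (1 of 17 members, against 2.95% of rows). This gene was above 10 FPKM in *ifc* only. The median log2 ratio of the 17 was 0.04. Large ratios were thus more frequent among weakly expressed rows of the whole table, and the part of this in the 4 members was not tested.

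**Figure D3:**
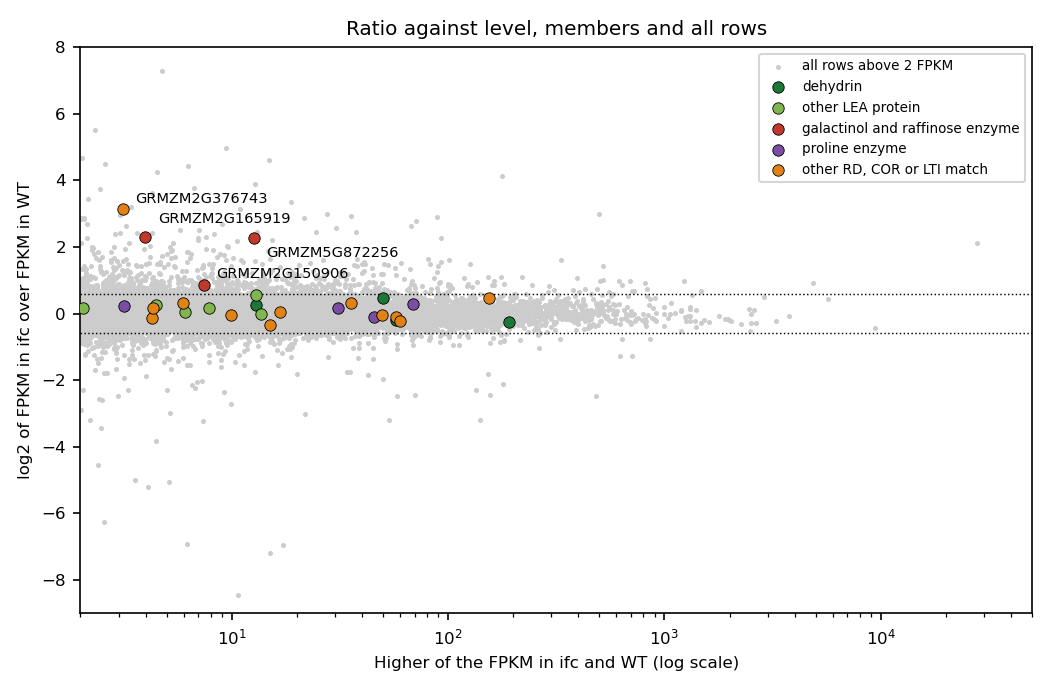
The log2 ratio of FPKM in *ifc* to that in WT against the higher of the 2 values (log axis) for all rows above 2 FPKM (grey) and the 29 members above 2 FPKM (coloured by type), with dotted lines at 1.5-fold in each direction. The 4 labelled members lie above the upper line at no more than 12.7 FPKM, all other members lie between the lines, and the grey points spread more widely at low levels. The 10 rows listed at 0 in either phenotype are not drawn.

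Of the 4 members past 1.5-fold, 3 shared annotations that the rule did not use, and the RD29B match GRMZM2G376743 carried none of them. Both galactinol synthases and the raffinose synthase carry the KEGG pathway of galactose metabolism. The rule found these 3 by the words galactinol and raffinose, so this annotation is not independent of it. Of the 46 other rows in that pathway, 42 were above 2 FPKM. Among these, 1 was past 1.5-fold higher and 1 lower, where the shares of all rows above 2 FPKM were 4.13% and 2.55%. The same 3 members carry the GO term for response to water deprivation, as do the synthetases GRMZM2G375504 and GRMZM2G028535. Of 111 rows above 2 FPKM with this term that are not members, 16 were past 1.5-fold higher and 1 lower, against 4.13% and 2.55% of all rows. Both annotations were chosen after the values had been seen.

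Markers of the tissue and of other cells were read in the same table. All 13 rows matched to the ovary and carpel genes AG, SHP, STK, SEP3 and CRC were above 2 FPKM, as were 21093 of all 25368 rows. That level alone therefore does not identify the tissue. The sum of the 13 rows was 3014 FPKM in *ifc* and 3310 in WT, and 0 were past 1.5-fold. Of the 13, 12 had a ratio under 1, with the lowest at 0.670, where 45.9% of all rows above 2 FPKM had a ratio over 1. No zein storage protein was listed, since the only row found by that word, GRMZM2G094532, is a membrane protein of zein bodies (20.0 and 21.4 FPKM). The 7 seed maturation rows (oleosins, Globulin-1 and matches of ABI3 and FUS3) summed to 33.6 FPKM in *ifc* and 42.5 in WT, all with a ratio under 1. Without a minimum, 48.7% of all rows had a ratio over 1. Of these 7 rows the ABI3 match GRMZM2G149940 was past 1.5-fold, with 1.68 FPKM in *ifc* against 2.82 in WT. The 16 rows of green tissue summed to 439.2 and 485.0 FPKM, with 1 past 1.5-fold higher in *ifc*, the Rubisco small chain GRMZM2G098520 at 5.63 against 2.76 FPKM. The 3 rows of pollen and anther summed to 27.9 and 26.9 FPKM. For the counts in these lists, the shares of all rows above 2 FPKM were 4.13% past 1.5-fold higher and 2.55% lower. No marker found was listed at 0 in either phenotype, and the part of these tissues in the members' values was not tested.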

How the data were processed

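The FPKM values were made by the authors: reads of rRNA-depleted libraries were trimmed with Trimmomatic and mapped to B73 RefGen_v3 with TopHat2, exonic reads were extracted with BEDTools and pooled per phenotype, and Cufflinks and Cuffdiff were used with their options for multi-mapped reads, fragment bias and quartile scaling. The libraries are strand-specific by the methods of the study, while the labels name a TruSeq RNA kit without mention of strand, and whether the counting used strand is not given in the sources used here. Multi-mapped reads are shared among near-identical copies, so values of members with a common *Arabidopsis* match may not be fully separate. The deposited table also holds the authors' fold changes, p-values and q-values, which were not used. Ratios of FPKM, medians of their log2 and counts of rows past 1.5-fold with an FPKM above 2 were computed with Python 3.11.15, numpy 2.4.6 and pandas 2.3.3, and the counting was tested on simulated data. No test was run, since each phenotype has 1 value. The members, types and lists were chosen with earlier results of these data known. Named were all members past 1.5-fold, the 3 highest of each type, every dehydrin, the members nearest to 1.5-fold, and others chosen after their values were seen. Names were matched to RefSeq (assembly NAM-5.0) for 32 of 36 members by identifier, and no coordinates of that assembly are given. Sequences were not used here. The alternatives were other scalings, a pseudocount of 1, other FPKM minimums, a 2-fold limit, 1 row per gene, and members found by description or symbol alone.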

Additional observations from a re-analysis of the deposited data

How the results depend on the processing

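The count of 4 members past 1.5-fold higher in *ifc* was 3 to 5 in 9 of 11 alternatives. The exceptions were equal totals and an FPKM above 10. Some of the 9 could not lower the count. Each member has its own identifier, so keeping 1 row per gene removes none. The scalings that moved log2 ratios by -0.05 and 0.02 were too small to take any of the 4 below 1.5-fold. Both columns set to the same total FPKM gave 32 members higher and a median log2 ratio of 1.29, since all ratios move with a single row of WT. An FPKM above 10 gave 1 of 17 members, against 2.95% of rows, and a median of 0.035. Without an FPKM minimum, 1 member was past 1.5-fold lower, and in the 10 other alternatives 0 were. The median of all members was from 0.12 to 0.26 in the other 8 settings. The log2 ratios of the 4 members kept their sign in all 16 values recomputed under other scalings and a pseudocount of 1. This outcome was fixed in advance and shows nothing about robustness. A pseudocount cannot change a sign, and the only downward shift was -0.05, where the smallest of the 4 log2 ratios was 0.87. The galactinol and raffinose enzymes had a median log2 ratio of 2.26, which was 1.46 with a pseudocount of 1 and 1.56 without a minimum. Over all rows, the 871 past 1.5-fold higher and 538 lower became 1878 and 869 of 25368 without a minimum and 376 and 202 of 12749 above 10 FPKM. Of the 21093 rows above 2 FPKM, 302 were past 2-fold higher and 129 lower. With a pseudocount of 1, 633 of these rows were past 1.5-fold higher and 342 lower. No paired analysis was possible because the deposited table holds values pooled over the libraries, and for the same reason no library could be left out. Values per library outside that table were not used here. Reads per gene were not used here, so the counting error of values near 2 FPKM is unknown.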

Other observations

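The rows listed for trehalose, a sugar linked to water deficit, were all matches of *Arabidopsis* TPS symbols. Whether their products make trehalose was not tested. Their median log2 ratio was 0.10 over the 11 of 12 rows above 2 FPKM. Of these 11 rows, 9 had a ratio over 1, against 45.9% of all rows above 2 FPKM. The TPS10 match GRMZM2G366659 had 10.5 FPKM in *ifc* and 6.83 in WT, a ratio of 1.54. It alone of the 11 was past 1.5-fold, where 4.13% of all rows above 2 FPKM were past 1.5-fold higher. The 3 matches of TPS11 had ratios of 1.28 (GRMZM2G312521), 1.35 (GRMZM2G122231) and 1.27 (GRMZM2G416836), and the TPS6 match GRMZM2G019183 had 58.9 and 45.8 FPKM. With equal totals all of these ratios would be larger by 1.13 on the log2 scale.

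Of 20 rows of other proteins named for water deficit, 18 were above 2 FPKM, and of these 9 had a ratio over 1 and 9 under 1. The number past 1.5-fold was 0, where 4.13% of all rows above 2 FPKM were past it higher and 2.55% lower. The highest was GRMZM2G069911, a match of the drought-linked linker histone HIS1-3, with 2156 FPKM in *ifc* and 2641 in WT. The abscisic stress ripening protein GRMZM2G136910 had 305.0 FPKM in *ifc* and 424.4 in WT, a ratio of 0.719 and the lowest of the list. The ERD15 match GRMZM2G037189 had 45.9 and 35.1 FPKM, a ratio of 1.31 and the highest of those above 2 FPKM.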
